A study of Rattus norvegicus with 6 samples.

Results

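The complement and coagulation genes described here were 32 rat genes chosen by name, and their FPKM, a read count normalised for transcript length and library depth, was summed by gene symbol in each sample. All 32 were listed among the 29468 symbols of the tables. Of these, 23 belong to complement and 9 to coagulation, and 29 of the 32 had a mean FPKM of at least 1 over the 6 samples and were tested. The other 3, Cfi, F5 and Cd46, are given as values without a test.

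The study asked how the transcriptome of Schwann cells that support axon regeneration differs from that of their embryonic precursors. Schwann cells are the glia of peripheral nerves, and RNA-seq was done on 3 samples of Schwann cell precursors (SCPs) and 3 samples of repair Schwann cells (RSCs). The SCPs came from untreated wild-type LEWIS rat embryos at embryonic day 14, from the sciatic nerves of both sides and the brachial plexus. The RSCs came from wild-type LEWIS rats 10 weeks old, from the distal part of the sciatic nerve 1 week after it was cut. Both were dissociated with collagenase and trypsin, more strongly and for longer for the RSCs, and were left briefly in uncoated flasks so that adherent fibroblasts and macrophages could be discarded. The groups therefore differed in age, injury, nerve and digestion together, and the parts of these in any difference cannot be told apart. The study prepared 3 sets of cells per group, but nothing says which animals each set held, so p-values measure only the spread between these samples.

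Complement is a protease cascade of blood and tissue. C1q bound to a surface activates the proteases C1r and C1s, which cut C4 and C2, and the enzyme so formed cuts C3. Factors B and D form the alternative route to the same cut, the fragments of C3 and C5 call in leukocytes through the receptors C3ar1 and C5ar1, and C1 inhibitor, Cd55, Cd46, Cd59 and factor I hold the cascade in check. Coagulation starts when tissue factor on a cell meets plasma factors, and thrombomodulin, the protein C receptor and tissue factor pathway inhibitors restrain it. In a cut nerve, complement is known to mark degenerating myelin for uptake by the macrophages that enter it. Most circulating complement and clotting factors are made by the liver, while the C1q chains are made mainly by macrophages.

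The C1q chain genes lay side by side on chr5:155246444-155264101 (build rn6, C1qb, C1qc and C1qa in this order), with 3017 bases between the first pair and 2622 between the second. C1r and C1s were neighbours on chr4:157126060-157155592, 6766 bases apart, and Cfb and C2 on chr20:4536206-4561152, 266 bases apart. RefSeq promoter windows (build GRCr8) matched 21 members. The others were C1qc, C1s, C2, C5ar1, Cd59, Cfb, Clu, F3, Serping1, Thbd and Vwf. C1qc, which lies between C1qb and C1qa, was thus without a window. The 250 bases before the starts of C1qa and C1qb, the C1q chain genes with a window, are shown. Both are on the minus strand, at chr5:154419934-154420183 and chr5:154407828-154408077, and are written 5′ to 3′, with capitals for a motif match.
C1qa: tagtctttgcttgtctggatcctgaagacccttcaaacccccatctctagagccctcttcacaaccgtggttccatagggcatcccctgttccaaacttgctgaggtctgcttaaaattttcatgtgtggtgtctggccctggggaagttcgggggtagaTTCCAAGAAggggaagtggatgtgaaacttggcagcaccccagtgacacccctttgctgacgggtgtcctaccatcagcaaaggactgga
C1qb: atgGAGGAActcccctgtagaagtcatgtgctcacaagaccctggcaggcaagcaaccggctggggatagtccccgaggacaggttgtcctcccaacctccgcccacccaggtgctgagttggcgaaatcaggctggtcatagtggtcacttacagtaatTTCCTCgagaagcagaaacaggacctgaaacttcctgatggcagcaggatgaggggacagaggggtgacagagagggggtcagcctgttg
The capitals in C1qa, which begin 90 bases before the start, match TTCNNNGAA, the letters of STAT sites. Those in C1qb match GAGGAA, the core of PU.1-type ETS sites, at 247 bases before the start and on the reverse strand at 90 bases. Over both strands, GAGGAA was in 9 of the 21 members' windows and in 23.3% of all 33469 windows of this length. TGACTCA, the AP-1 motif, was in 5 members (C3ar1, Cd46, Cfp, F5 and Procr) and in 4.05% of all windows, and TTCNNNGAA in 2 members (C1qa and Vtn) and in 7.67%. None of the 3 motifs overlapped another in the windows shown. These matches describe letters only.

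In the RSCs, 26 of the 29 tested members were higher at the study's threshold of p under 0.01 (limma on log2(FPKM + 1)), where 18.1% of all 13003 tested genes were. No member was higher in the SCPs at this threshold in limma, against 22.4% of all tested genes, and the lowest log2 fold change (RSC minus SCP) of a tested member was 0.44, in Tfpi. 23 members were also over 4-fold higher in the RSCs, against 7.81% of all tested genes, and 0 over 4-fold higher in the SCPs, against 3.78%. The tested members had a median log2 fold change of 3.49, or 3.46 without Cfp, whose named transcript was listed at 0 in every SCP sample. The median of all tested genes was -0.17. 12 of the 29 tested members had an SCP mean under 1 FPKM and so passed the filter on low values only through the RSCs, which means that these counts and medians are descriptions. All 3 RSC values lay above all 3 SCP values in 28 of the 29 tested members, as they did in 24.9% of all tested genes. Cd55, Tfpi and Vwf were the tested members that did not pass. All 26 that passed also had a Benjamini-Hochberg adjusted p under 0.05 over all tested genes.

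The 32 members together took 0.0126%, 0.0187% and 0.0174% of the FPKM of named transcripts in SCP 1 to 3 and 0.603%, 0.722% and 0.663% in RSC 1 to 3. In the RSCs, Serping1 alone made up 22.5% to 26.4% of the members' FPKM, and the 3 C1q chains 29.5% ± 3.44 (SD, n = 3). By the group mean of named transcripts, Cd59 and Tfpi were the highest members in the SCPs and Serping1 and C1r in the RSCs. The order varied between samples, among the highest members too. In RSC 3, C1qa (425 FPKM) stood above C1r (418), and in SCP 1, Tfpi (11.8) stood above Cd59 (10.7).

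**Figure D1:**
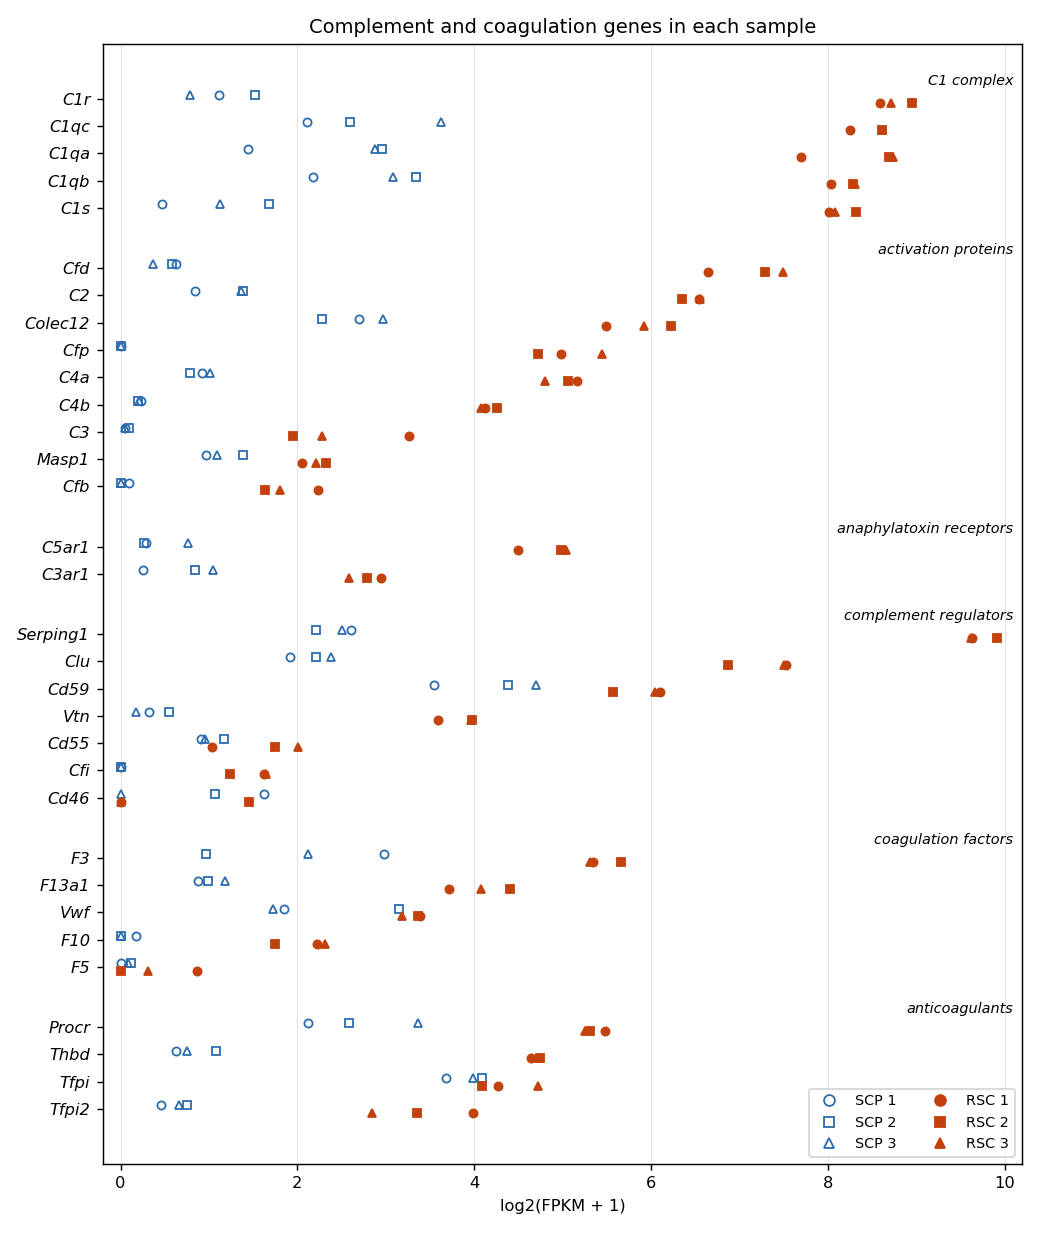
FPKM of the 32 members in each sample on the log2(FPKM + 1) scale, by role and, within a role, by the RSC mean (open blue, SCP 1 to 3; filled orange, RSC 1 to 3; the marker shape gives the replicate number). The RSC points lie right of the SCP points for all members but Cd55, Cd46 and F5, where they overlap.

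Per sample, relative depth by coverage per FPKM was 0.88 to 1.00 in the SCPs and 0.79 to 0.84 in the RSCs. Every SCP library was therefore deeper than every RSC library by this measure. Transcripts without a gene name took 26.1% to 31.9% of the FPKM in the SCPs and 18.6% to 23.4% in the RSCs. The erythroid markers summed to 8048 to 41633 FPKM in the SCPs, highest in SCP 3, and to 1360 to 1850 in the RSCs. Median-of-ratios scaling moved the median of all tested genes from -0.17 to 0.0053 and the RSC-higher share of called genes from 44.6% to 55.5%, while 26 members passed as before. An FPKM of exactly 0 can be a failed estimate here, as unnamed transcripts can hold signal at a gene listed at 0.

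All 5 genes of the C1 complex rose in the RSCs, each over 4-fold. C1qa, the A chain of C1q, was at 1.72, 6.79 and 6.33 FPKM in SCP 1 to 3 and at 206, 411 and 425 in RSC 1 to 3 (log2 fold change 5.95 ± 0.50 SE, adjusted p = 0.000314). C1qb was at 3.52, 9.12 and 7.47 FPKM in the SCPs and 261, 311 and 316 in the RSCs (5.34 ± 0.31, adjusted p = 8.17e-05). C1qc was at 3.32, 5.03 and 11.3 FPKM in the SCPs and 303, 390 and 392 in the RSCs (5.72 ± 0.39, adjusted p = 0.000149). The lowest RSC sample was 26.7 to 30.3 times the highest SCP sample for the 3 chains, and RSC 1 was the lowest RSC sample for each of them. In the SCPs the chains were low but above 0 in every sample, and SCP 1 was the lowest for each.

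The proteases that C1q carries had the larger log2 fold changes of the complex. C1r was at 1.17, 1.86 and 0.723 FPKM in the SCPs and at 385, 496 and 418 in the RSCs (log2 fold change 7.61 ± 0.21, adjusted p = 1.38e-05). C1s was at 0.382, 2.21 and 1.18 FPKM in the SCPs and at 258, 317 and 269 in the RSCs (7.05 ± 0.31, adjusted p = 3.84e-05). The lowest RSC sample exceeded the highest SCP sample 207-fold for C1r and 117-fold for C1s. In the RSCs, the ratio of C1r to C1s was almost constant, at 1.49, 1.56 and 1.55, whereas in the SCPs, where both were near 1 FPKM, it ran from 0.615 to 3.05.

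All 9 activation proteins rose, 7 of them over 4-fold. Cfd (factor D, the protease that cuts factor B) went from 0.541, 0.503 and 0.285 FPKM in the SCPs to 98.9, 156 and 180 in the RSCs (log2 fold change 6.62 ± 0.25, adjusted p = 2.64e-05). C2, the protease of the classical C3 convertase, went from 0.786, 1.6 and 1.58 FPKM to 92, 80.9 and 92.6 (5.29 ± 0.19, adjusted p = 2.5e-05). Its neighbour Cfb, the corresponding protease of the alternative route, stayed low, at 0.0728, 0 and 0 FPKM in the SCPs and 3.71, 2.09 and 2.48 in the RSCs (1.85 ± 0.25, adjusted p = 0.00198). The RSC mean of C2 was 88.5 FPKM ± 6.62 (SD, n = 3), so that the pair, though 266 bases apart, differed widely in level.

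C3, on which all routes converge, was at 0.0352, 0.066 and 0.0371 FPKM in the SCPs and at 8.62, 2.87 and 3.86 in the RSCs (log2 fold change 2.44 ± 0.38, adjusted p = 0.00324). RSC 1 stood well above the other RSC samples in named transcripts. With overlapping unnamed transcripts added, RSC 1 to 3 were closer, at 8.62, 5.21 and 4.71 FPKM (2.74, adjusted p = 9.22e-05). All RSC values of C3 lay far below those of C1r, C1s or C2. C4a was at 0.891, 0.725 and 1.02 FPKM in the SCPs and 34.8, 32.3 and 26.9 in the RSCs (4.10 ± 0.17, adjusted p = 3.28e-05). C4b was at 0.179, 0.151 and 0.158 FPKM in the SCPs and 16.4, 18.1 and 15.9 in the RSCs (3.94 ± 0.17, adjusted p = 3.77e-05). The C4a value sums 2 placements of the same RefSeq transcript. The 670-base one, at 2651599 to 2652952, had 24.9, 22.3 and 18.9 FPKM in the RSCs. The 4164-base one, at 2667526 to 2678183, had 9.89, 9.99 and 7.93, below C4b in each RSC sample. C4a and C4b are closely related copies on chromosome 20, at 2651599 to 2678183 and at 4302344 to 4316752, and their identity was not measured here. The split of reads between them is therefore uncertain, although both showed the same direction.

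Properdin (Cfp), which stabilises the alternative convertase, was listed at 0 in all 3 SCP samples and at 30.6, 25.4 and 42.7 FPKM in the RSCs. Unnamed transcripts overlapping Cfp stood at 6.59, 11.6 and 9.99 FPKM in the SCPs and at 17.3 in RSC 2. With them added, Cfp rose from 6.59 to 11.6 FPKM in the SCPs to 30.6 to 42.7 in the RSCs (log2 fold change 1.95, adjusted p = 0.00038), so the listed zeros do not show that the locus was silent. Colec12, a sugar-binding scavenger receptor of the collectin family, was at 5.49, 3.84 and 6.8 FPKM in the SCPs and 43.9, 73.6 and 59.7 in the RSCs (3.23 ± 0.26, adjusted p = 0.000268). Masp1, a protease of the lectin route, showed the smallest rise of the group, from 0.958, 1.61 and 1.13 FPKM to 3.15, 4.01 and 3.62 (1.05 ± 0.22, adjusted p = 0.00976). Masp1 lost its call at p under 0.01 when RSC 2 was left out (adjusted p = 0.0316) or RSC 3 (adjusted p = 0.0301).

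Both anaphylatoxin receptors, which are carried mainly by myeloid cells, rose. On the scale of FPKM + 1, C5ar1 was well over 4-fold higher and C3ar1 was close to this limit. C5ar1 was at 0.221, 0.207 and 0.7 FPKM in the SCPs and at 21.5, 30.5 and 31.9 in the RSCs (log2 fold change 4.39 ± 0.24, adjusted p = 7.23e-05). C3ar1 was at 0.197, 0.798 and 1.07 FPKM in the SCPs and at 6.68, 5.89 and 5.01 in the RSCs (2.05 ± 0.28, adjusted p = 0.00189). Under 4 alternatives, C3ar1 fell short of 4-fold, at log2 fold changes of 1.82 to 1.97 (quantile normalization, the highest transcript alone, or without SCP 1 or RSC 1). The C3ar1 value was larger with a pseudocount of 0.1 (3.13) and with unnamed transcripts added (2.62). By group means of FPKM, C3ar1 rose 8.52-fold. C5ar1 was the higher of the pair in each RSC sample, whereas in SCP 2 and SCP 3 C3ar1 was the higher one.

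Of the 7 complement regulators, 5 were tested and 4 rose. Serping1, the C1 inhibitor that blocks C1r and C1s, was the highest member in each RSC sample, at 793, 959 and 786 FPKM, against 5.07, 3.63 and 4.66 in the SCPs (log2 fold change 7.28 ± 0.14, adjusted p = 5.72e-06). In the RSCs it therefore stood above C1r in every sample. Clu (clusterin, which binds the terminal complement complex) rose from 2.78, 3.63 and 4.21 FPKM to 183, 116 and 181 (5.13 ± 0.23, adjusted p = 3.84e-05). Vtn (vitronectin, a matrix protein that also binds this complex) rose from 0.246, 0.459 and 0.13 FPKM to 11, 14.7 and 14.6 (3.49 ± 0.22, adjusted p = 0.000105).

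The membrane regulators had smaller fold changes than these. Cd59, which stops the membrane attack pore, had the highest mean of the members in the SCPs (Tfpi was higher in SCP 1), at 10.7, 19.9 and 25 FPKM, and was at 67.8, 46.6 and 64.9 in the RSCs (log2 fold change 1.70 ± 0.32, adjusted p = 0.00718). Cd59 lost its call at p under 0.01 when RSC 1 was left out (adjusted p = 0.0299) or RSC 3 (adjusted p = 0.0304). Cd55, which dissolves convertases, was at 0.875, 1.25 and 0.939 FPKM in the SCPs and at 1.05, 2.35 and 3.03 in the RSCs, and the groups overlapped (0.59 ± 0.31, adjusted p = 0.178). With unnamed transcripts added, Cd55 was at 5.16, 3.52 and 3.03 FPKM in the RSCs and passed (1.26, adjusted p = 0.00179). Cd46, a cofactor for factor I, was at 2.09, 1.09 and 0 FPKM in the SCPs and at 0, 1.73 and 0 in the RSCs. Factor I itself (Cfi), the protease that inactivates C3b and C4b, had 2.07, 1.37 and 2.12 FPKM in the RSCs and was listed at 0 in the 3 SCP samples, under the filter on low values.

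Of the 5 coagulation factors, 4 were tested and 3 rose. F3 (tissue factor, the starter of coagulation) was at 6.9, 0.955 and 3.35 FPKM in the SCPs and at 39.7, 49.6 and 38.6 in the RSCs (log2 fold change 3.42 ± 0.50, adjusted p = 0.0026). SCP 2 was the lowest sample, but unnamed transcripts overlapping F3 held 4.21 FPKM there and brought it to 5.17. All SCP values lay below the RSC values with and without them. F13a1, the A subunit of the fibrin-crosslinking transglutaminase, rose from 0.841, 0.984 and 1.27 FPKM to 12.1, 20.1 and 15.9 (3.05 ± 0.23, adjusted p = 0.000229). F10 (factor X) was at 0.125, 0 and 0 FPKM in the SCPs and at 3.65, 2.36 and 3.98 in the RSCs (2.04 ± 0.25, adjusted p = 0.00131), and fell short of 4-fold under 3 alternatives (1.91 to 1.98). In named transcripts, F5, the cofactor of factor X, remained under 1 FPKM in all 6 samples. It was at 0, 0.0824 and 0.0618 in the SCPs and 0.822, 0 and 0.236 in the RSCs. With unnamed transcripts added, F5 was at 0.29, 0.0824 and 0.0618 FPKM in the SCPs and 0.822, 2.06 and 1.17 in the RSCs.

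Vwf (von Willebrand factor, the platelet-binding protein of endothelium) was at 2.62, 7.85 and 2.29 FPKM in the SCPs and at 9.42, 9.32 and 8.06 in the RSCs. It did not pass the test (log2 fold change 1.07 ± 0.40, adjusted p = 0.0751). SCP 2 stood close to the RSC samples, and without it Vwf had a log2 fold change of 1.52 and passed (adjusted p = 0.00402).

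All 4 anticoagulant genes were tested and 3 rose. Thbd (thrombomodulin, which turns thrombin toward protein C) was at 0.547, 1.12 and 0.681 FPKM in the SCPs and at 23.9, 25.8 and 25.6 in the RSCs (log2 fold change 3.88 ± 0.18, adjusted p = 4.58e-05). Procr, the endothelial protein C receptor, went from 3.34, 5.01 and 9.34 FPKM to 43.7, 38.7 and 37 (2.66 ± 0.32, adjusted p = 0.00124). Of the tissue factor pathway inhibitors, Tfpi2 rose from 0.37, 0.689 and 0.585 FPKM to 14.8, 9.19 and 6.2 (2.77 ± 0.33, adjusted p = 0.00114). Tfpi was at 11.8, 15.9 and 14.8 FPKM in the SCPs and at 18.3, 16 and 25.4 in the RSCs and did not pass (0.44 ± 0.21, adjusted p = 0.131), and the difference between these genes was not tested. With only the highest transcript of each gene counted, Tfpi had a log2 fold change of 0.82 and passed (adjusted p = 0.0156).

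**Figure D2:**
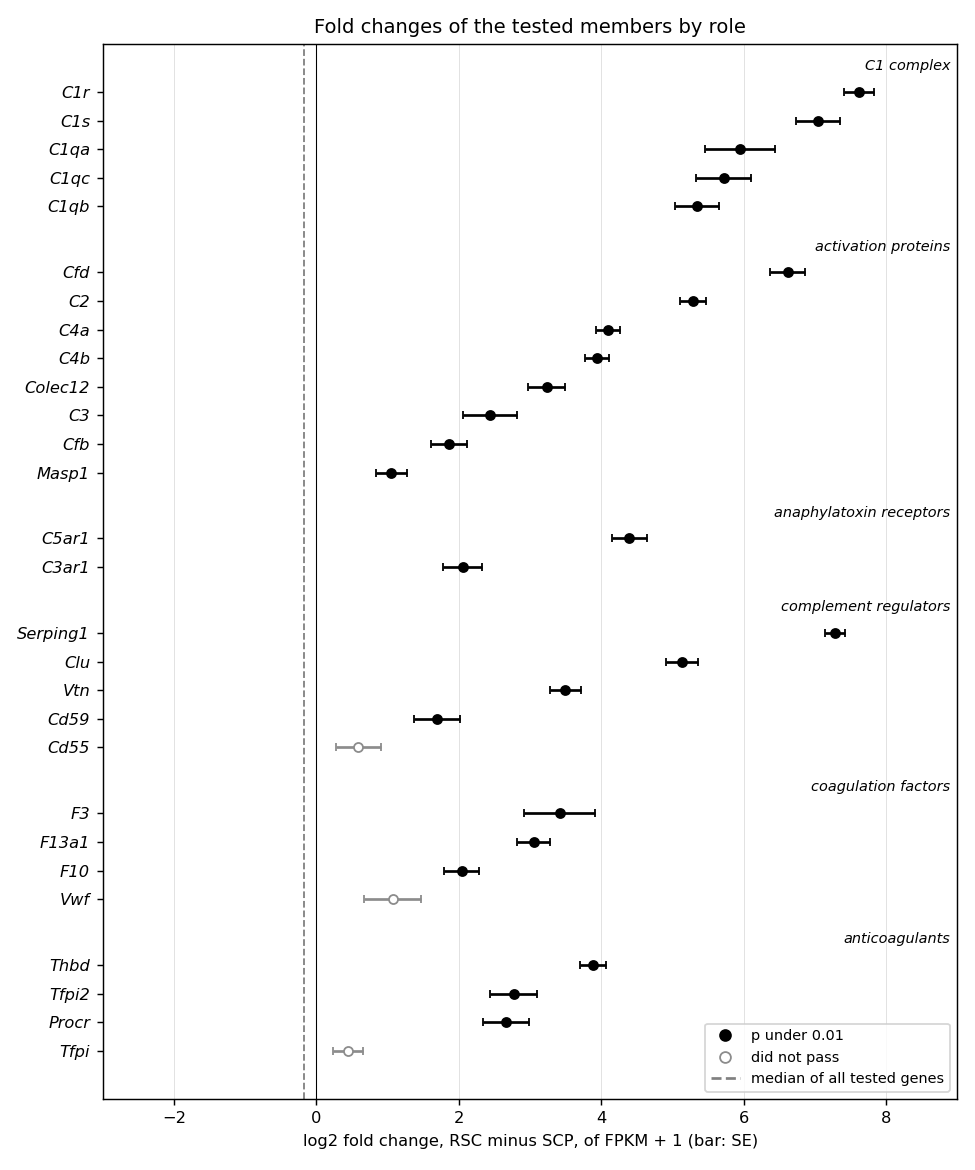
Log2 fold change of FPKM + 1 (RSC minus SCP, 3 samples per group) with its standard error for the tested members by role, without Cfp, which was listed at 0 in all SCP samples. Filled points passed p under 0.01, open points (Cd55, Vwf and Tfpi) did not, and all lie right of the dashed median of all tested genes at -0.17.

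Part of the reads at several members stood in transcripts that the tables leave unnamed. Unnamed transcripts overlapping C1qa held 143 FPKM in RSC 1 and 0 in the other samples, so that RSC 1 came to 349 FPKM, against 411 and 425 in RSC 2 and RSC 3. At Clu, they held 106 FPKM in RSC 2 alone, which brought it from 116 to 222. At Tfpi2 they held 5.95, 9.73 and 18.2 FPKM in the RSCs, and the sums of 20.8, 18.9 and 24.4 were closer together than the named values. The C3ar1 sums in the RSCs were 9.18, 9.2 and 8.91 FPKM. With unnamed transcripts added, 27 of the 29 tested members were higher in the RSCs, 22 of them over 4-fold.

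**Figure D3:**
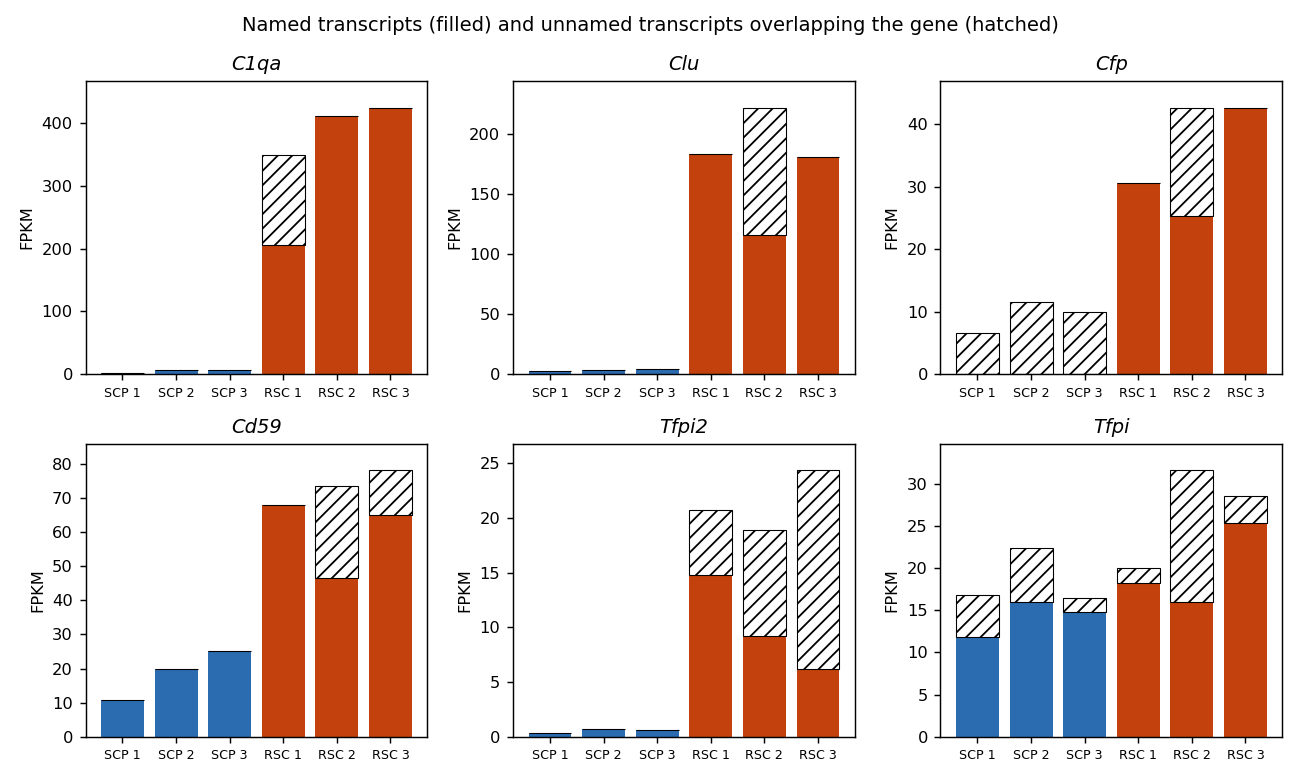
FPKM of named transcripts (filled bars, blue for SCP and orange for RSC samples) and of overlapping unnamed transcripts (hatched) for 6 members. In Cfp the whole SCP signal, 6.59 to 11.6 FPKM, is hatched, and in C1qa and Clu a single RSC sample carries a hatched part.

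The markers of some other cell types were higher in the RSCs too, and those of others were not. Beside the counts for each marker list, 18.1% of all tested genes were higher in the RSCs and 22.4% were lower. Fewer cells of a type and less RNA per cell cannot be told apart in such bulk samples. 12 of 14 tested macrophage and monocyte markers were higher in the RSCs, and their summed level was 20.5 to 49.2 FPKM in the SCPs and 2385 to 3026 in the RSCs. Among the defining ones, Csf1r was at 1.48, 3.83 and 3.27 FPKM in the SCPs and 54.4, 83.8 and 66.3 in the RSCs, and Ptprc at 0.193, 0.758 and 0.609 and at 10.8, 11.9 and 7.33. Cd68 was listed at 0 in SCP 1 and SCP 2 and was at 218 to 259 FPKM in the RSCs, Mrc1 was at 17.2 to 24.7 in the RSCs, and Cd163, listed at 0 in SCP 1 and SCP 2, was at 3.51 to 9.77 in the RSCs. SCP 1 had the lowest sum of these markers and also the lowest level of each C1q chain. The part of these markers in the members' rise was not tested.

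Relative to the macrophage marker sum, the C1q chains together were at 0.418, 0.585 and 0.511 in the SCPs and at 0.323, 0.396 and 0.374 in the RSCs. Without Lyz2, which rose from 1.99 to 6.04 FPKM in the SCPs to 1468 to 1770 in the RSCs, the same ratio was 0.463, 0.657 and 0.583 in the SCPs and 0.84, 0.973 and 0.902 in the RSCs. The direction of this ratio therefore depended on Lyz2, and it gave no order between the groups. The sum also holds Ctss, at 0, 30.5 and 187 FPKM in RSC 1 to 3, and Cx3cr1, at 0, 29 and 0. Such zeros may be failed estimates, and their effect on the ratios to this sum was not tested. C5ar1 stood at 0.0103 ± 0.00425 (SD, n = 3) of the macrophage sum in the SCPs and at 0.0101 ± 0.000988 in the RSCs, and the groups overlapped. Without Lyz2 it stood at 0.0116 ± 0.00488 in the SCPs and 0.0252 ± 0.00162 in the RSCs, and they did not overlap, so this reading too depended on Lyz2. F13a1 stood at 0.0315 ± 0.00832 of the sum in the SCPs and 0.00584 ± 0.00115 in the RSCs. Without Lyz2 these were 0.0353 ± 0.00884 and 0.0145 ± 0.00269, so that the SCP mean was 5.39 times the RSC mean with Lyz2 and 2.43 times without it.

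Among the nerve fibroblast and perineurial markers, 10 of 12 were higher in the RSCs and Fbln1 was lower, with sums of 883 to 1214 FPKM in the SCPs and 5518 to 8176 in the RSCs. Of the defining ones, Dcn was at 8.6, 14.9 and 23.9 FPKM in the SCPs and at 1175, 2697 and 2308 in the RSCs, and Pdgfra, which did not pass, at 41.7 to 47 and at 47.6 to 61.3. C1r and C1s together were 0.00233 ± 0.00117 (SD, n = 3) of the fibroblast sum in the SCPs and 0.105 ± 0.00989 in the RSCs. Serping1 was at 0.00429 ± 0.00129 and 0.125 ± 0.0163 of it. Both ratios to this sum were higher in every RSC sample than in any SCP sample. The highest markers of the sum in the SCPs were Col3a1 and Col1a2, at means of 352 and 241 FPKM. By group means these rose 3.89-fold and 4.86-fold, whereas Dcn rose 130-fold and Serping1 190-fold. Ratios to single fibroblast markers were not made, so the order holds for this sum only. The Schwann cell lineage markers summed to 564 to 678 FPKM in the SCPs and 2519 to 2918 in the RSCs, with 5 of 9 tested higher. Sox10, which defines the lineage, was at 175 to 181 FPKM in the SCPs and 143 to 149 in the RSCs and was lower there (log2 fold change -0.30 ± 0.06, adjusted p = 0.00767).

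The endothelial markers summed to 78.5 to 129 FPKM in the SCPs and 186 to 191 in the RSCs. Of 12 tested, 3 were higher in the RSCs (25%, against 18.1% of all tested genes) and Plvap was lower. The higher ones were Eng (means 10.9 and 46.1 FPKM in SCPs and RSCs), Cldn5 (11.2 and 42.5) and Esam (6.27 and 19.1). Pecam1 was at 5.6, 9.65 and 6.55 FPKM in the SCPs and at 9.37, 5.77 and 4.08 in the RSCs. It did not pass, and neither did Cdh5, Kdr, Tek and Tie1. Vwf was at 0.0396 ± 0.0191 (SD, n = 3) of the endothelial sum in the SCPs and 0.0473 ± 0.00415 in the RSCs, and its highest share was that of SCP 2. Procr was at 0.0602 ± 0.0338 of this sum in the SCPs and 0.211 ± 0.0168 in the RSCs, and Thbd at 0.00763 ± 0.000922 and 0.133 ± 0.00722. Of the other lists, 5 of 7 tested leukocyte markers of other lineages were higher in the RSCs (1.9 to 5.25 against 25 to 46.2 FPKM). Among the mural markers (74.5 to 266 against 119 to 183 FPKM), 1 of 7 tested was higher. Rgs5, another mural marker, was listed at 0 in every RSC sample and was under the filter. With unnamed transcripts added, Rgs5, Cspg4 and Myh11 passed as higher in the RSCs, and Notch3 and Pdgfrb as lower. The single platelet marker tested, Pf4, was at 28, 21.6 and 10.7 FPKM in the SCPs and at 65.1, 151 and 107 in the RSCs. The other platelet markers were under the filter. Of these, Ppbp, Itga2b, Gp9, Gp1ba, Gp6 and Tubb1 had lower means in the RSCs and Treml1 a higher one. Gp1bb was listed at 0 in all samples. Of the hepatocyte markers, Rbp4 alone was tested and was higher in the RSCs (0.733 to 2.58 against 9.18 to 16.8 FPKM), and Alb was listed at 0 in all samples but SCP 1 (0.382). The dissociation response genes summed to 335 to 408 FPKM in the SCPs and 2280 to 2483 in the RSCs, with 8 of 10 higher, and 6 of 8 tested erythroid markers were lower there. The part of each in the members' values was not tested.

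**Figure D4:**
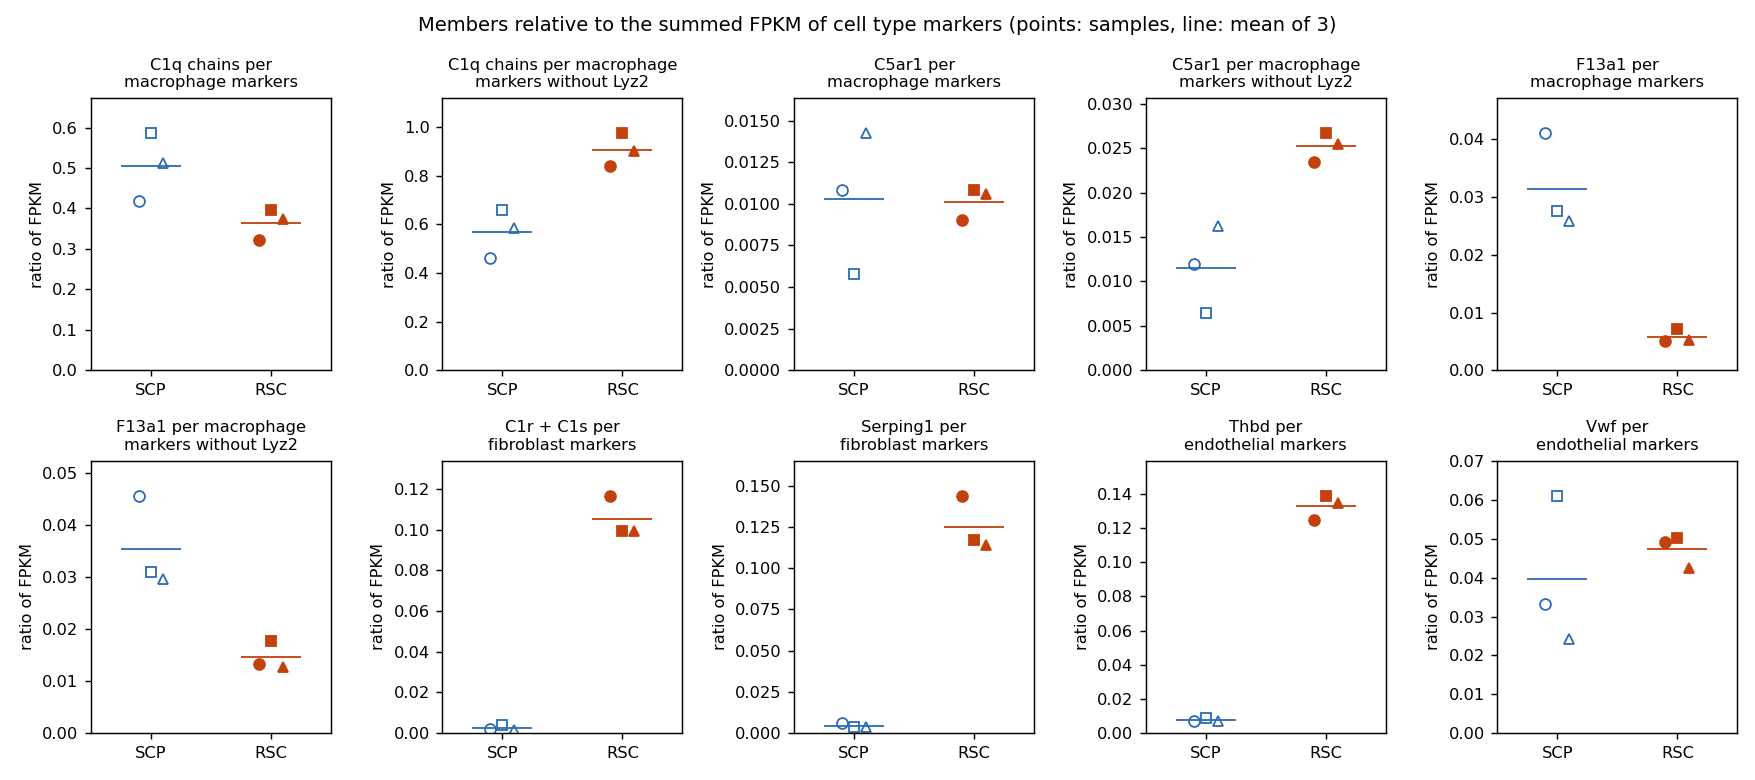
Ratio of member FPKM to the summed FPKM of a marker list in each sample (open blue, SCP; filled orange, RSC; line, mean of 3; each axis starts at 0). The C1q ratio is lower in the RSCs with all markers and higher without Lyz2, C5ar1 overlaps between groups with Lyz2 but not without it, and F13a1 is lower in the RSCs both ways. Vwf overlaps, and C1r with C1s, Serping1 and Thbd do not.

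Of 71 other genes of the complement and coagulation pathways, 69 were in the tables and 29 were tested. Of these, 17 were higher in the RSCs, against 18.1% of all tested genes, and 1, C1qbp, was lower, against 22.4%. Among complement components, 5 of 7 tested rose. C7, which joins the membrane attack complex, was at 0.465, 1.85 and 2.12 FPKM in the SCPs and at 64.5, 76.4 and 77.5 in the RSCs (log2 fold change 4.97 ± 0.31, adjusted p = 0.000111). C6, its partner in this complex, was at 0.0613, 0 and 0 FPKM and at 3.65, 4.07 and 4.39. C8a, C8b, C8g and C9, which complete the pore, were listed at 0 in all 6 samples, and C5 stayed under 0.1 FPKM in each. The ficolin Fcna, a recognition protein of the lectin route, rose from 0.486, 1.51 and 1.37 FPKM to 25.6, 43.4 and 42.8 (4.17 ± 0.31, adjusted p = 0.000203).

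Among the other complement receptors and regulators, 6 of 9 tested were higher in the RSCs. The subunits of the C3 receptors of myeloid cells rose together. Itgam was at 0.0987 to 0.445 FPKM in the SCPs and 19 to 25.1 in the RSCs, Itgax at 0.186 to 0.335 and 21.6 to 30.9, and Itgb2 at 0.029 to 0.367 and 8.93 to 12.5. C5ar2, the other C5a receptor, was at 0.476, 0 and 1.17 FPKM in the SCPs and at 5.67, 7.94 and 5.38 in the RSCs. C1qbp, a mostly mitochondrial protein first found by its binding to C1q, fell from 147, 175 and 162 FPKM to 65.7, 62.4 and 72.9 (log2 fold change -1.25 ± 0.10, adjusted p = 0.000264).

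The wider coagulation list had fewer members past the test. Of 6 tested factors and cofactors, Vkorc1 and Vkorc1l1, which recycle vitamin K, were higher in the RSCs (log2 fold changes 1.58 ± 0.19 and 0.97 ± 0.20), neither over 4-fold. F7, F11, F12, F13b and Fga were listed at 0 in all samples, and F2 (prothrombin) was at 0.27 to 0.508 FPKM in the SCPs and at most 0.107 in the RSCs. Of 7 tested inhibitors and receptors, 4 were higher. A2m, a broad protease inhibitor, rose from 0.196, 0.441 and 0.29 FPKM to 215, 249 and 222 (7.46 ± 0.13, adjusted p = 4.94e-06), and Gas6, a ligand of Axl, from 3.97, 3.62 and 4.03 to 30.9, 41.6 and 45.6 (3.03 ± 0.17, adjusted p = 8.29e-05). Axl rose from 21.1, 19.8 and 26.5 FPKM to 97, 202 and 146 (2.62 ± 0.28, adjusted p = 0.000749).

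**Figure D5:**
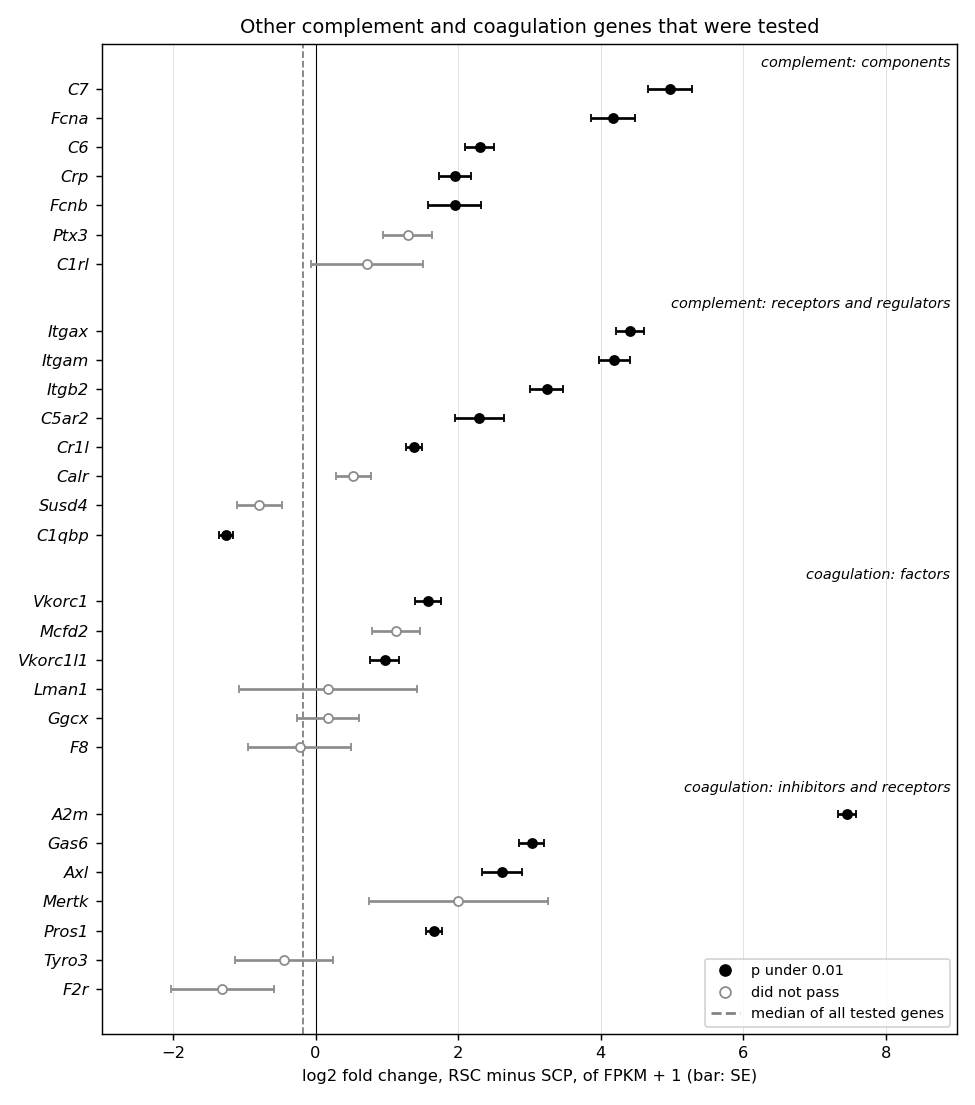
Log2 fold change of FPKM + 1 (RSC minus SCP) with its standard error for tested genes of the wider complement and coagulation list. Of the filled points, which passed p under 0.01, C1qbp alone lies left of 0, and A2m lies farthest right at 7.46.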

How the data were processed

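RNA-seq was done on 3 SCP and 3 RSC samples, grouped by their titles. Per the submitters' processing notes, the authors used FastQC 0.11.2, TopHat2 2.1.0 and Cufflinks 2.2.1 with genome build rn6. The deposited tables hold FPKM per transcript, with bounds and a coverage signal, and no counts, so the depth in reads is unknown and no counting interval is given. The coverage signal deposited by the authors served only for relative depth.

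FPKM was summed by gene symbol in each sample. In each table, 77 transcripts whose symbol had become a date and all unnamed transcripts were left out. Genes with a mean FPKM of at least 1 were tested with limma 3.58.1 (R 4.3.3) on log2(FPKM + 1) with a variance trend, two-sided, all 6 samples in 1 fit, with Benjamini-Hochberg adjustment over all tested genes. A pseudocount of 1 understates the change of low genes. A gene was called at unadjusted p under 0.01, as in the study, and over 4-fold at a log2 fold change past 2. These thresholds are the study's, but the study used Cuffdiff. SE is the standard error of the log2 fold change. The fit was tested on simulated data.

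The members and lists were chosen with earlier results of these data known. All 32 members are named. Of the other pathway genes, those past both thresholds with the largest changes are named, except 1 that is counted but not reported here, and of each marker list the counts, the summed level and defining genes. Masp1, Cd55, Cd59, Tfpi and Vwf are given with each alternative that changed their call. Genes named outside this rule were chosen after their values were seen. Among them were Lyz2, Ctss, Cx3cr1, Fbln1, Col3a1, Eng, Cldn5, Esam, Plvap, Rbp4, Vkorc1, C1qbp, F2 and the genes listed at 0. Figures used matplotlib, and promoter motifs were searched on both strands of RefSeq windows. Alternatives changed the pseudocount, filter, scaling, variance trend, replicate block, transcript sum, zeros, unnamed transcripts and threshold, and left out each sample in turn.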

Additional observations from a re-analysis of the deposited data

Results flagged for a closer look

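Transcripts without a gene name that overlap a member lay outside the comparisons of named transcripts, and 5 such signals were above 0 in all 3 samples of a group. At Cfp they averaged 9.4 FPKM in the SCPs, where the named transcript was listed at 0. At Tfpi they averaged 4.37 FPKM in the SCPs and 6.81 in the RSCs. At Tfpi2 they averaged 11.3 FPKM in the RSCs and at C3ar1 3.24, and both had none in the SCPs. Groups of 3 samples are too small for the test of single outlying samples.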

How the results depend on the processing

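Over 17 alternatives, the 29 tested members gave 486 values, of which 478 kept their direction and their side of p under 0.01, 5 lost the call, 3 gained it and 0 changed sign. The number of members higher in the RSCs ran from 21 (mean FPKM of at least 5, which tests fewer members) to 27, and 0 were higher in the SCPs under each alternative. Leaving out 1 sample at a time gave 24 to 27 members higher in the RSCs, 21 to 23 over 4-fold, 4460 to 4874 genes past the threshold and a median of 3.43 to 3.79, with SCP 1 left out giving 3.79. The median was 5.01 with a pseudocount of 0.1, 3.32 with no filter and 4.1 with a mean FPKM of at least 5. Under the scaling alternatives it was 3.6 and 3.38. Adding unnamed transcripts raised the genes past the threshold from 5268 to 8038. The other pathway genes higher in the SCPs numbered 2 with no filter, 4 with unnamed transcripts and 1 to 3 with 1 sample left out, 3 of them without SCP 2. The causes were not tested. The ratios to macrophage markers without Lyz2 were chosen after seeing the data, and that of C1q came to 0.905 in the RSCs, against 0.364 with Lyz2.

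The titles number the samples 1 to 3 in each group. Deviations of same-numbered samples from their group means correlated at 0.0435, -0.0049 and 0.0259. These values gave no sign of pairing, but with 3 samples per group they cannot exclude that same-numbered samples were prepared together. With the replicate block, 4275 genes passed, 25 members were higher in the RSCs with 23 over 4-fold, 0 were higher in the SCPs, the median was 3.49, and 18 other pathway genes were higher in the RSCs and 1 in the SCPs. The member that lost its call there was Masp1 (log2 fold change 1.05, adjusted p = 0.0335). FPKM without counts limits the lowest genes most, and genes with a mean under 1 FPKM were tested only in the alternative with no filter.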
